A study of Mus musculus with 6 samples.

Results

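Most Zfp genes encode C2H2 zinc finger proteins, the largest family of DNA-binding regulators in the mouse, and they were examined here in RNA-seq of peritoneal macrophages (PMs). A gene was taken when its symbol was Zfp followed by a number, or was Znf41-ps, and when it held at least 100 counts summed over all 6 libraries. Zfp36, which encodes an RNA-binding protein with another kind of zinc finger, was left out. The rule gave 245 of the 32879 genes with a transcript record, out of 388 Zfp symbols with a record. They were thus chosen by their summed level over both groups, and levels are given as a description.

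The libraries came from 3 control mice and 3 diseased-BWF1 mice, with 1 library per animal. Control mice were female [NZW × BALB/c]F1 animals aged 33, 33 and 30 weeks without lupus. Diseased-BWF1 mice were female [NZB × NZW]F1 animals aged 31, 31 and 34 weeks, a model that develops lupus spontaneously, taken after autoantibodies and severe proteinuria had appeared. Both crosses have an NZW parent, and the other parent is BALB/c or NZB, so strain and disease cannot be told apart in any result here. PMs had been purified by cell sorting as F4/80+, CD11b high cells, and no transgene or treatment was used.

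A C2H2 finger is a short loop held by a zinc ion, and a short helix in it reads bases in the groove of DNA. Many Zfp proteins also carry a KRAB domain, which recruits the corepressor Trim28 and, through it, the histone methyltransferase Setdb1 to the bound site. Such KRAB zinc finger proteins are known for silencing endogenous retroviruses and other transposable elements, and they arise by repeated gene duplication, so that neighbouring copies often differ little in sequence. Distal mouse chromosome 4 holds a large cluster of such copies.

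Libraries held 3629901 to 5003360 counts, of which 3376669 to 4604336 fell on genes, and 3 counts in a library corresponded to 0.652 to 0.888 CPM (counts scaled by library size). Such limits cover counting error only. All 10 PM markers were detected, with a summed level of 145926 to 193663 normalized counts in control mice and 122770 to 143614 in diseased-BWF1 mice. In this sum every diseased-BWF1 mouse was below every control mouse. Lyz2 made up most of the sum, with a mean of 119965 in control and 87560 in diseased-BWF1 mice. Itgam, Csf1r, Mertk and Cebpb had higher means in diseased-BWF1 mice, and the other PM markers lower ones. The sum therefore mainly follows Lyz2 and does not stand for all PM markers. For B cells, 5 markers summed to 15.4 to 24.8 in control mice and 5.04 to 14.2 in diseased-BWF1 mice, without overlap. These markers had little signal, from 3 counts (Pax5) to 40 (Cd79a) over all 6 libraries, and none passed the low-count filter. For monocytes, 3 markers summed to 2.30 to 12.4 and 7.09 to 32.3, with overlap. Other markers of these lists are not reported here, and the part of such cells in the results below was not tested. In these sorted bulk samples, fewer cells of a type and less RNA per cell cannot be told apart.

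Of the 245 Zfp genes, 244 passed the low-count filter, and Zfp654 did not. A total of 16 would have held under 100 counts had both groups been at the level of the lower one, so these were included through 1 group. Zfp991, Zfp595, Zfp503 and Zfp69, described below, are among these 16, and a difference between the groups is built into their inclusion. The genes just inside the threshold were Zfp41 and Zfp946 with 100 counts each, and those just outside were Zfp867 with 99 and Zfp456 with 98. The mean level of a Zfp gene ranged from 15.8 to 1233 normalized counts, with a median of 55.1, against 103.8 for all 10505 genes tested. The coefficient of variation between mice had a median of 18.6% in control and 16.3% in diseased-BWF1 mice for Zfp genes, and of 17.4% and 15.0% for all genes tested.

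The main comparison asked which Zfp genes differed between diseased-BWF1 and control PMs. Only Zfp991, Znf41-ps and Zfp984 were called, which required an adjusted p below 0.05 (edgeR quasi-likelihood test, Benjamini-Hochberg adjustment over all genes) together with a difference of 1.5-fold or more, and all of them were lower in diseased-BWF1 mice. These 3 calls are 1.23% of the Zfp genes tested, beside 1.22% of all genes tested. In the lower direction alone, 0.819% of all genes were called, and in the higher direction 0.4%. All 3 called genes lie in 1 stretch of distal chromosome 4, at chr4:145789515-147849126 in GRCm38.p6. That stretch also holds Zfp992, Zfp979 and Zfp933, and further Zfp symbols under 100 counts that were not taken.

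Zfp991, a protein-coding KRAB zinc finger gene at chr4:147132093-147180579, had 170, 146 and 167 normalized counts in control mice but 8.50, 20.3 and 7.06 in diseased-BWF1 mice. No mouse of either group came near the other group. Its log2 fold change was -3.75 with a standard error of 0.34, and edgeR's quasi-likelihood test gave an adjusted p of 0.00703. It met the 100-count rule only through the control mice. Znf41-ps, annotated as a transcribed pseudogene at chr4:145789515-145831978, had 176, 129 and 142 normalized counts in control mice and 29.3, 27.3 and 24.2 in diseased-BWF1 mice. The diseased-BWF1 mice lay within a narrow range, far below the control mice. Its log2 fold change was -2.47 with a standard error of 0.19 and an adjusted p of 0.00399 (edgeR). Both genes were called with any 1 mouse left out.

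Zfp984, also protein-coding, lies at chr4:147753974-147812229. It had 153, 153 and 161 normalized counts in control mice and 50, 50.6 and 30.3 in diseased-BWF1 mice. The groups were apart, with control mice near the same level. Its log2 fold change was -1.83 with a standard error of 0.22 and an adjusted p of 0.0176 (edgeR). The call was lost without any 1 control mouse or without diseased-BWF1 mouse 1, with adjusted p from 0.0558 to 0.0777 (edgeR), while the log2 fold change stayed between -1.95 and -1.81 in these fits. It was also lost with the replicate number as a block (adjusted p 0.0564, edgeR) and with curated transcript records alone (0.0531, edgeR). The log2 fold changes there were -1.85 and -1.88.

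The other Zfp genes taken on the stretch did not pass the test. Zfp992, at chr4:146449030-146469440, had 113, 102 and 86.1 normalized counts in control mice and 71.8, 66.8 and 70.6 in diseased-BWF1 mice. The groups did not overlap, but the gap was small, with a log2 fold change of -0.53 and an adjusted p of 0.211 (edgeR). Zfp979 had 33.1, 60.7 and 78.1 normalized counts in control mice and 62.3, 77.0 and 64.5 in diseased-BWF1 mice, so its groups overlapped. Zfp933 had 42.2, 51.4 and 28.7 in control mice and 47.2, 46.6 and 65.6 in diseased-BWF1 mice, and its groups overlapped too. Their log2 fold changes were 0.25 and 0.37, with adjusted p of 0.779 and 0.613 (edgeR). With 1 mouse left out, Zfp979 ran from -0.04 (without control mouse 1) to 0.55 (without control mouse 3), and Zfp933 from 0.18 (without control mouse 3) to 0.57 (without control mouse 2). Neighbours on the same stretch therefore did not move as 1 block.

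**Figure D1:**
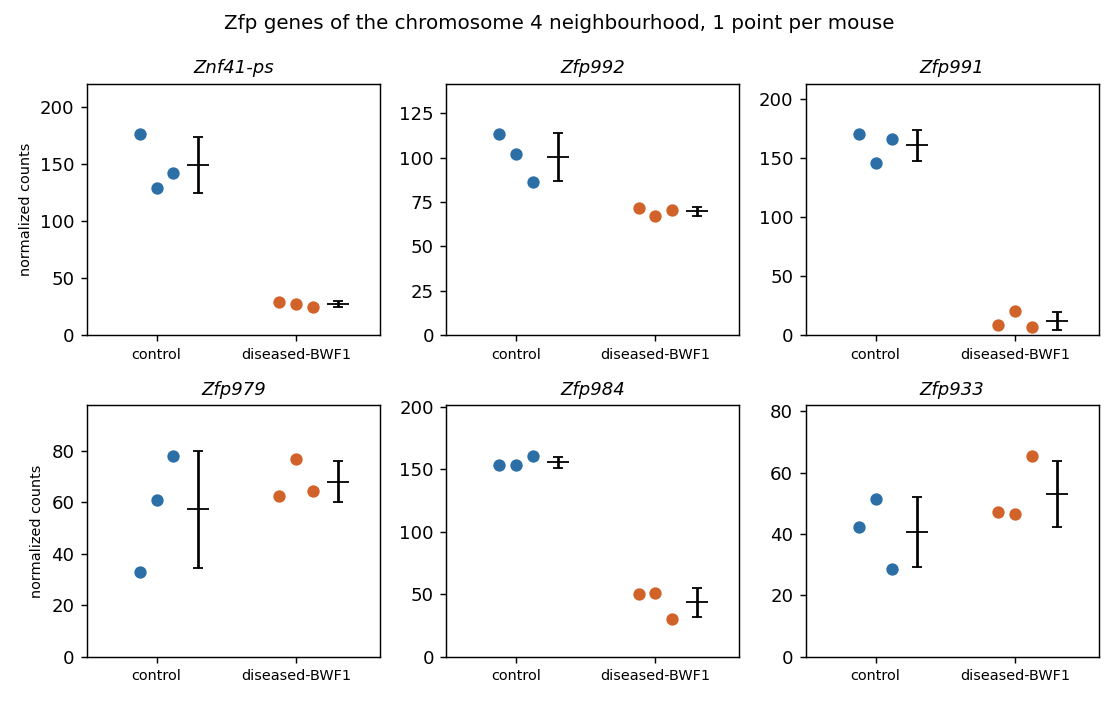
Normalized counts of the 6 Zfp genes with at least 100 counts on the distal chromosome 4 stretch, in order of position. There is 1 point per mouse (control blue, diseased-BWF1 orange), with the mean and SD (n = 3) beside each group. Each vertical axis starts at 0. Znf41-ps, Zfp991 and Zfp984 were far lower in diseased-BWF1 mice, Zfp992 was apart by a small gap, and Zfp979 and Zfp933 overlapped.

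The copies differ little in sequence, and the stretches below show how far a read could tell them apart. Shown are the first and the last of the 11 fingers of Zfp991, as 84 bases each that start at bases 724 and 1564 of its coding sequence (GENCODE vM21 transcripts, GRCm38, coding strand), with the aligned bases of the related genes, and capitals mark bases that differ from Zfp991. The first finger reads as follows.
Zfp991: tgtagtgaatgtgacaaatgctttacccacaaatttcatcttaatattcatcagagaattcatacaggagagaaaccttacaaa
Zfp992: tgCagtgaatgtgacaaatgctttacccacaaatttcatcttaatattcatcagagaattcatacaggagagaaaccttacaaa
Znf41-ps: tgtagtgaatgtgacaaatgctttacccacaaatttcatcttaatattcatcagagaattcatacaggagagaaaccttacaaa
Zfp984: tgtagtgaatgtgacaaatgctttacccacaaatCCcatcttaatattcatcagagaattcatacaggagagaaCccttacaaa

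The eleventh finger shows where Zfp984 departs from the other copies.
Zfp991: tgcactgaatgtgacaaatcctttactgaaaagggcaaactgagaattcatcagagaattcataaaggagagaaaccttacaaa
Zfp992: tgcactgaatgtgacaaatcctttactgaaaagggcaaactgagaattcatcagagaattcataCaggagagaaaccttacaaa
Znf41-ps: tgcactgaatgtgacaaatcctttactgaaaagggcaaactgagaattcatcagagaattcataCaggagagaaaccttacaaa
Zfp984: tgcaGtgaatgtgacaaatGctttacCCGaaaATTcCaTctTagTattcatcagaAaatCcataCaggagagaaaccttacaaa

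Over the whole coding sequence of 1719 bases, Zfp992 differed from Zfp991 at 8 bases and Znf41-ps at 6, which is 99.5% and 99.7% identity. The longest identical run was 484 bases with Zfp992 and 900 bases with Znf41-ps, both longer than a 75-base read. Zfp984 was 90.7% identical over 1640 aligned bases, with a longest run of 79 bases. In the 10 fingers aligned without a gap, Zfp984 differed from Zfp991 at 32.4% of the bases of the DNA-contacting helix (68 of 210) and at 5.87% of the other finger bases (37 of 630). Zfp992 and Znf41-ps differed from Zfp991 at 5 and 3 bases in all 11 fingers, and at 0 bases in the helices. Zfp979 and Zfp933 were more distant, at 81.8% and 70.0% identity.

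Reads from near-identical copies cannot be told apart, and how they were split between Zfp991, Znf41-ps and Zfp992 depends on the authors' counting. Of all 75-base stretches of the Zfp991 transcripts, 75.9% occur in another gene, with 60.8% also in Znf41-ps, 46.9% in Zfp992 and 31.3% in Zfp993, which is not analysed here. Of the stretches of Znf41-ps, 83.0% occur elsewhere, and of those of Zfp992, 34.5%. The single values of Zfp991, Znf41-ps and Zfp992 are therefore uncertain, whereas their sum does not depend on the split between these 3 genes, though Zfp993 is not in it. The sequences are those of the reference genome, and copies carried by NZB, NZW and BALB/c mice were not analysed here. The copies in these crosses may differ from the reference, and the part of such differences in the counts was not tested.

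The sum of Zfp991, Zfp992 and Znf41-ps was 460, 377 and 395 normalized counts in control mice and 110, 114 and 102 in diseased-BWF1 mice. Every diseased-BWF1 mouse was below every control mouse by a wide margin. The log2 fold change of the sum was -1.92 with a standard error of 0.13 and an adjusted p of 0.00246 (edgeR). Summed over the 6 Zfp genes of the stretch with at least 100 counts, the values were 688, 642 and 663 in control mice. Diseased-BWF1 mice had 269, 289 and 262. The log2 fold change was -1.28 with a standard error of 0.11 and an adjusted p of 0.00584 (edgeR). Zfp genes there under 100 counts are not in this sum, such as Zfp534 with 38 counts in control and 36 in diseased-BWF1 mice. The sum of 3 was taken over genes already seen to be lower, that of 6 also holds Zfp979 and Zfp933, and both hold Zfp991, which was included through the control mice. The sums describe the genes together and are no independent support.

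Zfp984 was also summed with a gene that shares part of its sequence. It shares 35.9% of its 75-base stretches with Gm13212, a protein-coding gene of chromosome 4 that starts at base 145585172, before the stretch, and 0.254% with Zfp991. Gm13212 had 70.3, 76.1 and 54.0 normalized counts in control mice and 124, 104 and 75.6 in diseased-BWF1 mice, with overlapping groups. Zfp984 and Gm13212 together had 223, 229 and 215 normalized counts in control mice and 174, 155 and 106 in diseased-BWF1 mice. The groups stayed apart, but the log2 fold change was -0.62 with a standard error of 0.19 and an adjusted p of 0.222 (edgeR), so the pair was not called. Gm13212 had a log2 fold change of 0.59 with an adjusted p of 0.336 (edgeR), and how reads were assigned between these genes was not tested. When single transcript records were tested in place of genes, 13 of 20332 records were called, and the records of Zfp991, Znf41-ps and Zfp984 had adjusted p of 0.144, 0.0693 and 0.166 (edgeR).

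**Figure D2:**
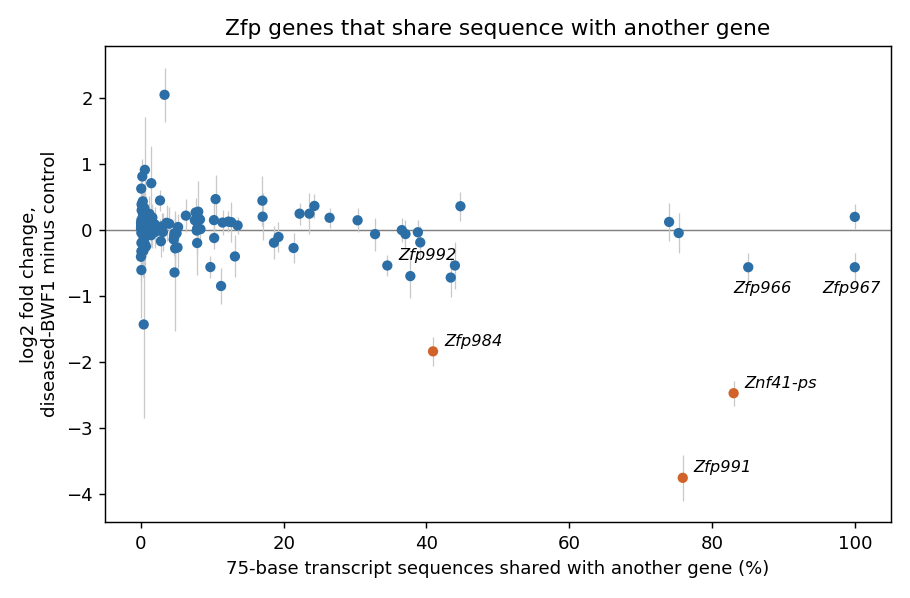
Log2 fold change (diseased-BWF1 minus control, bars show the standard error) of the 113 Zfp genes that share sequence with another gene, against the percentage of their 75-base transcript stretches found in another gene; orange points are called genes. The 3 called genes are all among those with shared sequence, and the other 5 genes above 50% lie between -0.56 and 0.21.

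Sharing of this size was not usual among Zfp genes. Of the 244 with a transcript in the annotation, 131 share no 75-base stretch with another gene, 37 share over 10% and 7 share over 50%. Besides Zfp991 and Znf41-ps, the genes above 50% were Zfp966, Zfp967, Zfp935, Zfp960 and Zfp97. Zfp966 and Zfp967 on chromosome 2 have identical coding sequences of 1455 bases, and they held the same counts in every library, 266 counts each in all. Each had 52.1, 60.7 and 42.5 normalized counts in control mice and 32.1, 34.4 and 39.3 in diseased-BWF1 mice, so these are 1 measurement listed under 2 names. The groups did not overlap, with a log2 fold change of -0.56 and an adjusted p of 0.323 (edgeR). Zfp935, Zfp960 and Zfp97 had overlapping groups, with log2 fold changes of 0.21, -0.04 and 0.13.

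Zfp genes lie in clusters, and the clusters were compared by position. Genes less than 1 Mb apart were joined, which gave 23 neighbourhoods of 3 or more that hold 139 Zfp genes, while 80 Zfp genes had no other within 1 Mb. The median log2 fold change within these neighbourhoods ran from -1.18 on distal chromosome 4 to 0.46 in 1 neighbourhood of chromosome 7. The next lowest median, -0.31, was that of distal chromosome 2, where Zfp966, Zfp967 and Zfp972 of 6 genes had an unadjusted p under 0.05 in the lower direction and none was called by edgeR or DESeq2. Zfp966 and Zfp967 are 1 measurement, so this median and these genes hold it under both names. Zfp972 had 31.4, 24.7 and 29.9 normalized counts in control mice and 14.2, 15.2 and 23.2 in diseased-BWF1 mice, with an adjusted p of 0.362 (edgeR). The largest neighbourhoods, with 18 and 12 genes on chromosome 17 and 14 on chromosome 13, had medians of 0.14, 0.22 and 0.11.

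**Figure D3:**
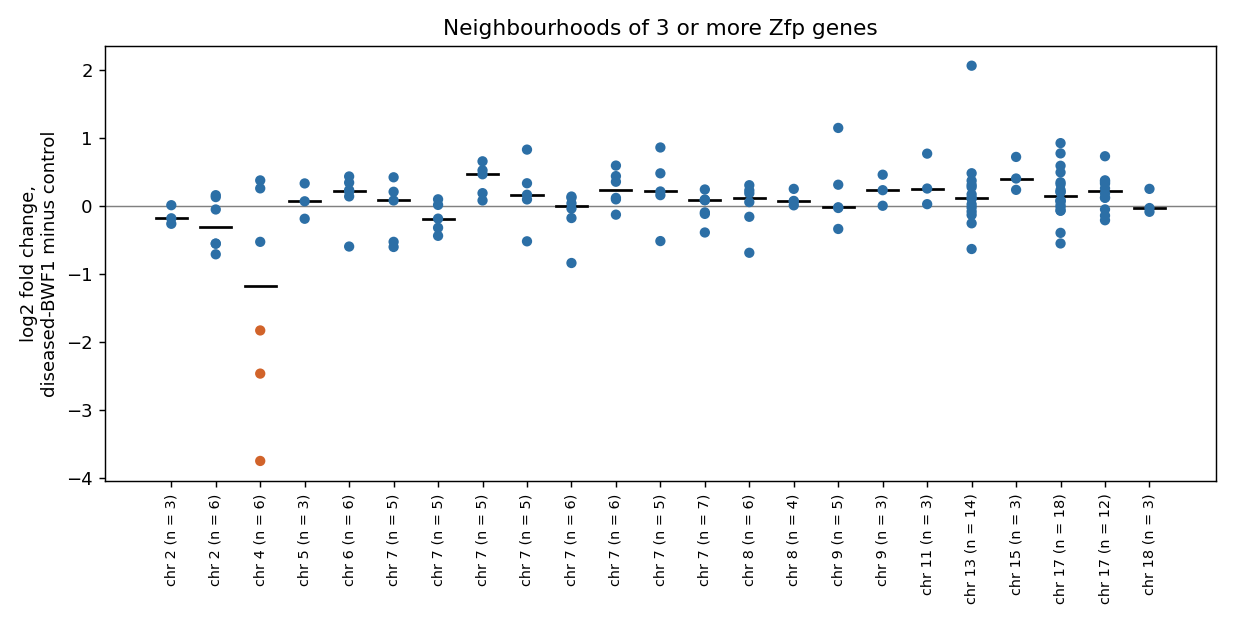
Log2 fold change (diseased-BWF1 minus control) of the Zfp genes in each of the 23 neighbourhoods of 3 or more genes, by chromosome; 1 point per gene, a bar at the median, called genes in orange. The neighbourhood on chromosome 4 has a median of -1.18, and the other 22 medians lie between -0.31 and 0.46.

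Outside the chromosome 4 stretch, 238 Zfp genes were tested and 0 were called by edgeR, while 16 had an unadjusted p under 0.05 in the higher and 7 in the lower direction, and DESeq2 called 1 of them, Zfp595. Among all genes tested, 5.62% had an unadjusted p under 0.05 in the higher direction and 7.57% in the lower, and DESeq2 called 3.37%. Over all 244 Zfp genes tested, 162 had a log2 fold change above 0 (66.4%), against 50.9% of all genes. The median was 0.10, with quartiles of -0.09 and 0.30, against 0.01 for all genes, and it was 0.16 without control mouse 2. No test of the median was made. A difference of 1.5-fold or more, without regard to its test, was found in 16 Zfp genes in the higher and 14 in the lower direction, beside 6.53% and 8.32% of all genes tested. A total of 45 Zfp genes (18.4%) had groups that did not overlap, 29 of them higher and 16 lower in diseased-BWF1 mice, beside 20.8% of all genes tested, 9.59% higher and 11.2% lower.

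**Figure D4:**
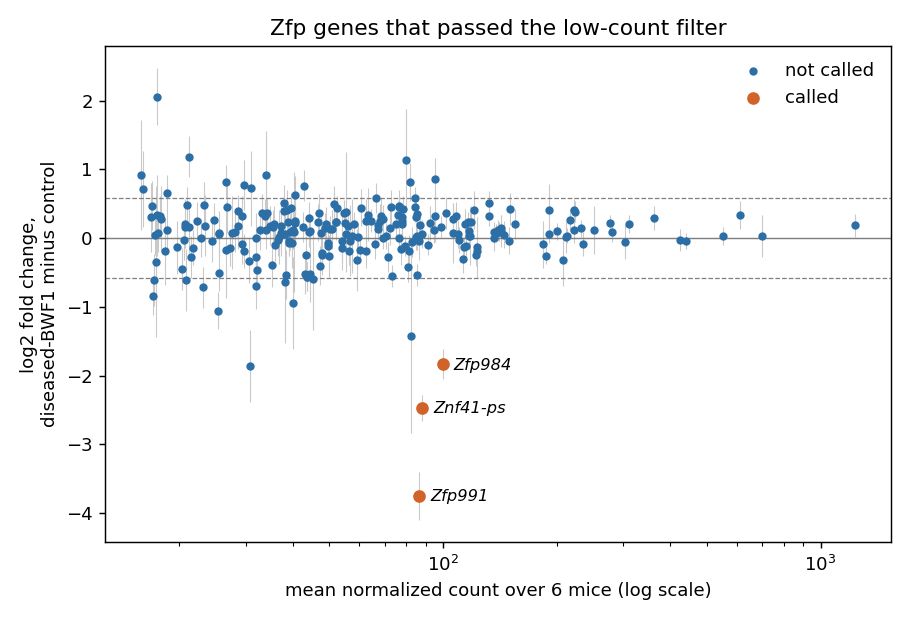
Log2 fold change (diseased-BWF1 minus control, bars show the standard error) of the 244 Zfp genes tested against their mean normalized count over the 6 mice, on a log axis; dashed lines mark a fold change of 1.5. The called genes Zfp991, Znf41-ps and Zfp984 lie below the other genes of like level, and the most highly expressed genes lie near 0.

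The Zfp genes took 0.567%, 0.547% and 0.519% of the gene counts in control mice and 0.586%, 0.596% and 0.592% in diseased-BWF1 mice. The groups did not overlap, with 0.544 ± 0.0244% in control and 0.591 ± 0.00513% in diseased-BWF1 mice (SD, n = 3, exact two-sided permutation p = 0.1, the smallest possible with 3 against 3). On the scale of normalized counts the sum was 21047 ± 818 in control and 22236 ± 594 in diseased-BWF1 mice (SD, n = 3, exact two-sided permutation p = 0.2), and the groups overlapped. Control mouse 3 held the lowest value of the 6 mice for 62 Zfp genes, but also the highest for 51. Diseased-BWF1 mouse 2 held the highest for 67 and the lowest for 24. The same numbers over all genes are not given here.

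Among the genes that were not called, the smallest p in the higher direction belonged to Zfp595 on chromosome 13. Zfp595 met the 100-count rule only through the diseased-BWF1 mice. It had 4.96, 6.17 and 9.19 normalized counts in control mice and 17.9, 30.4 and 36.3 in diseased-BWF1 mice. All values were low, and the groups did not overlap. Its log2 fold change was 2.06 with a standard error of 0.41, and the adjusted p was 0.073 with edgeR and 0.0243 with DESeq2. Its 13 neighbours on chromosome 13 were not called by either tool.

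Zfp503, a regulator known from development of the striatum, had 9.93, 16.5 and 12.6 normalized counts in control mice and 32.1, 30.4 and 26.2 in diseased-BWF1 mice. Zfp52 had 66.2, 59.7 and 75.8 in control mice and 101, 103 and 98.8 in diseased-BWF1 mice. In both genes every diseased-BWF1 mouse was above every control mouse. The log2 fold changes were 1.18 and 0.59, with adjusted p of 0.140 and 0.155 (edgeR). Zfp61 had 17.4, 21.6 and 18.4 normalized counts in control mice and 32.1, 38.5 and 31.3 in diseased-BWF1 mice. Zfp692, known as a regulator of glucose production in liver, had 34.8, 35 and 25.3 in control mice and 62.3, 53.7 and 46.4 in diseased-BWF1 mice. Their groups were apart as well, with log2 fold changes of 0.82 and 0.76 and adjusted p of 0.198 for each (edgeR).

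In the lower direction, Zfp951 on chromosome 5 had 32.3, 38.1 and 32.2 normalized counts in control mice and 19.8, 13.2 and 16.1 in diseased-BWF1 mice. The groups were apart, with a log2 fold change of -1.05 and an adjusted p of 0.140 (edgeR). Zfp69, a candidate diabetes gene of obese mice, lies on chromosome 4 but outside the stretch above, at chr4:120930133-120951701. It had 53.0, 47.3 and 44.8 normalized counts in control mice and 2.83, 19.2 and 18.2 in diseased-BWF1 mice. The groups did not overlap, and diseased-BWF1 mouse 1 was the lowest. Its log2 fold change was -1.86 with a standard error of 0.53, and the adjusted p was 0.181 with edgeR and 0.0536 with DESeq2.

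**Figure D5:**
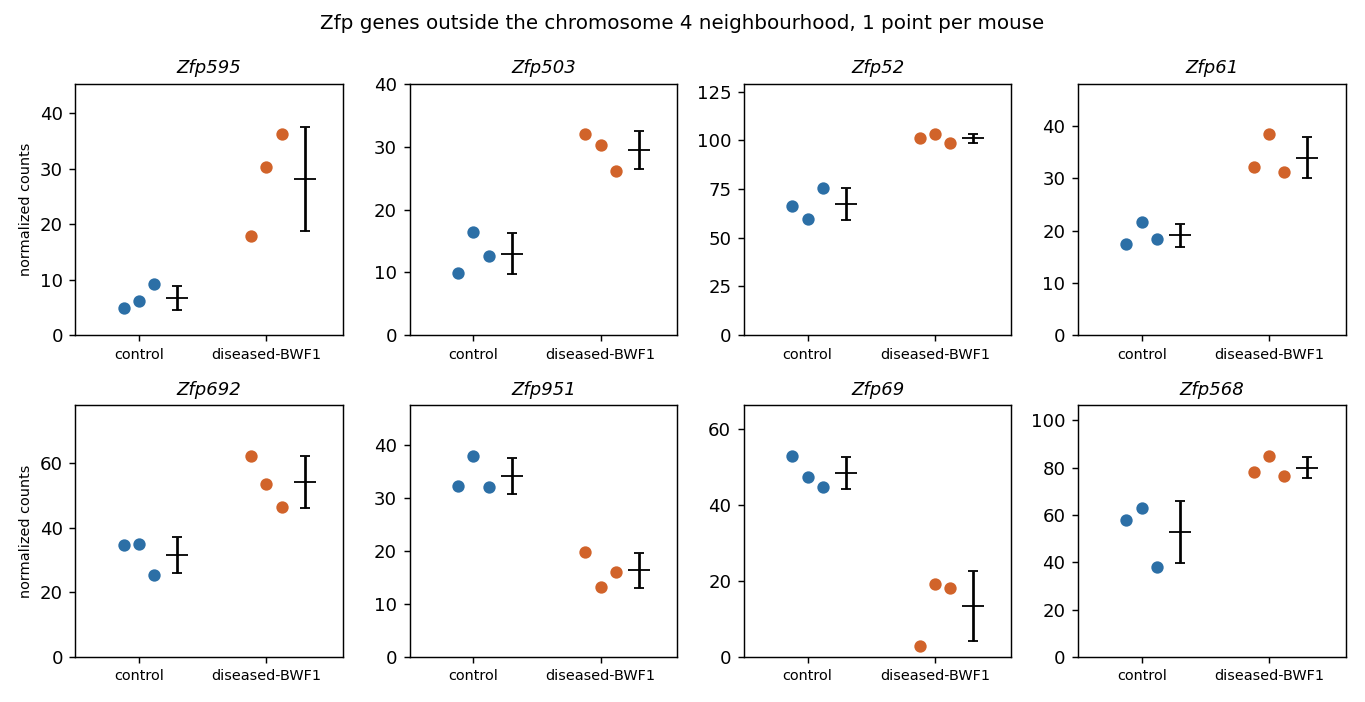
Normalized counts of 8 Zfp genes outside the distal chromosome 4 stretch, with 1 point per mouse (control blue, diseased-BWF1 orange) and the mean with SD (n = 3); each vertical axis starts at 0. The 8 genes were chosen with their values known, mostly for a small p, so groups that do not overlap are built into the choice. Zfp595, Zfp503 and Zfp69 also met the 100-count rule only through 1 group. The groups do not overlap in any of the 8 genes, beside 20.8% of all genes tested with groups that did not overlap. None of the 8 was called by edgeR.

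Zfp991, Zfp984, Zfp595 and Zfp420 are in the study's own gene lists, which were chosen on these samples. Zfp420 held 89 counts and so fell under the threshold. It had 6.62, 0 and 18.4 normalized counts in control mice and 26.4, 19.2 and 18.2 in diseased-BWF1 mice, with overlapping groups, a log2 fold change of 1.38 and an adjusted p of 0.541 (edgeR). The log2 fold change was 2.55 without control mouse 3 and 0.81 without control mouse 2.

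The most highly expressed Zfp genes did not differ beyond their spread. The 6 highest were Zfp106, Zfp710, Zfp871, Zfp91, Zfp706 and Zfp207, which together held 18.3% of the normalized Zfp counts. Zfp106, an RNA-binding protein needed by motor neurons, had 1287, 1277 and 890 normalized counts in control mice and 1242, 1368 and 1332 in diseased-BWF1 mice. Zfp207, a protein of the mitotic spindle, had 459, 379 and 444 in control mice and 486, 362 and 414 in diseased-BWF1 mice. In all 6 genes the groups overlapped, with log2 fold changes between -0.04 and 0.34 and adjusted p from 0.541 to 0.982 (edgeR).

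Of the Zfp proteins named for known silencing targets, Zfp809, Zfp932 and Zfp568 were not called, and Zfp708, with 53 counts, was not tested. Zfp809, which brings Trim28 to the primer binding site of murine leukemia virus, had 67.8, 53.5 and 62.0 normalized counts in control mice and 69.9, 66.8 and 116 in diseased-BWF1 mice, with overlapping groups, a log2 fold change of 0.45 and its highest value in diseased-BWF1 mouse 3. Zfp932, a repressor of endogenous retroviruses, had 65.4, 59.7 and 63.2 in control mice and 65.2, 74.9 and 75.6 in diseased-BWF1 mice. Zfp568, which represses a placental transcript of Igf2, had 57.9, 62.8 and 37.9 in control mice and 78.4, 85.1 and 76.7 in diseased-BWF1 mice. Its groups did not overlap, with a log2 fold change of 0.59, and the adjusted p was 0.298 (edgeR).

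The imprinting regulators could not be compared well. Zfp445 had 125, 0 and 233 normalized counts in control mice and 0, 27.3 and 107 in diseased-BWF1 mice, so that its log2 fold change of -1.42 had a standard error of 1.41. Zfp57, the other Zfp protein that protects imprinted methylation, held 4 counts in all 6 libraries. Zeros of the kind seen for Zfp445 also occurred in Zfp142, Zfp335, Zfp426, Zfp654, Zfp874a and Zfp946, which makes 7 Zfp genes (2.86%) with a library at 0, against 1.41% of the 9720 genes with at least 100 counts. At the level of single transcript records with at least 50 counts, 41.5% of the 426 Zfp records and 37.6% of all 22752 records had a library at 0. A zero in a single library of these genes is thus listed at 0 and is not taken as absence of the transcript.

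Several Zfp genes were named for other known roles. Zfp281, a factor known from pluripotent cells, had 216, 195 and 200 normalized counts in control mice and 168, 156 and 190 in diseased-BWF1 mice, and Zfp148, which binds GC-rich promoters, had 304, 302 and 257 in control and 368, 321 and 307 in diseased-BWF1 mice. Both had groups that did not overlap, in opposite directions, with log2 fold changes of -0.25 and 0.20 and adjusted p of 0.462 and 0.580 (edgeR). Zfp143, which binds many promoters, and Zfp384 overlapped, with log2 fold changes of -0.04 and -0.08. The value of Zfp143 was 0.38 without control mouse 1 and -0.41 without control mouse 2. The ribosome assembly proteins Zfp622 and Zfp593 had log2 fold changes of -0.30 and 0.01, and Zfp318, known for its part in IgD expression of B cells, had 0.27. Without control mouse 3, Zfp622 had -0.09 and Zfp318 0.15, and without control mouse 1, Zfp593 had 0.22 and Zfp318 0.38. With all mice, none of these genes had an adjusted p below 0.462 (edgeR).

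Zfp genes were also split by protein features read from their coding sequences, which were found for 242 of them. A KRAB signature was matched in 117 and not in 125, and a missing match says only that these letters are not in the sequence. The median log2 fold change was 0.10 in both classes, with 75 of 117 and 86 of 124 tested genes above 0. Of the called genes, Zfp991 and Zfp984 carried the signature, and Znf41-ps has no coding sequence. Fingers of the classical spacing numbered 10 at the median and 33 at most, in Zfp619. No finger of that spacing was matched in 27 Zfp genes, among them Zfp106, Zfp207 and Zfp706.

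The partners of KRAB zinc finger proteins were described from a list of 31 corepressor and heterochromatin genes, of which 29 were tested. edgeR and DESeq2 called 0 of them, and 2, Cbx5 and Tasor, had an unadjusted p under 0.05, both higher in diseased-BWF1 mice, which is 6.9% of those tested beside 13.2% of all genes. The list had a median log2 fold change of 0.16, with 22 genes above 0 and 7 below (75.9% above 0, beside 50.9% of all genes). Trim28 had 280, 274 and 348 normalized counts in control mice and 383, 336 and 352 in diseased-BWF1 mice, so that its groups overlapped, with a log2 fold change of 0.25 and an adjusted p of 0.511 (edgeR). Setdb1 had a log2 fold change of 0.17 and an adjusted p of 0.659. Among 74 C2H2 zinc finger genes under other names, such as Klf and Zbtb genes, edgeR called 0 and DESeq2 called 3, while 5 had an unadjusted p under 0.05 in the higher and 2 in the lower direction, with a median log2 fold change of 0.17. Among all genes tested, DESeq2 called 3.37% and 13.2% had an unadjusted p under 0.05.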

How the data were processed

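PM RNA of 6 mice was sequenced by the authors as paired 75-base reads of stranded mRNA libraries. The authors deposited, per mouse, an estimated count for each of 107193 RefSeq records as whole numbers without normalization. The submitters' processing notes name Salmon 0.8.0, DESeq2 and GRCm38.p6, without saying which step each served, and how reads shared by several records were assigned is not given in the sources used here.

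Counts were summed per gene through a RefSeq gene table of GRCm38.p6. The table matched 45754 records in the same version and 40712 in another one, and the other 20727 were left out. Genes were tested with edgeR 4.0.16 (filterByExpr, TMM, quasi-likelihood test, Benjamini-Hochberg over 10505 genes, common dispersion 0.0543) in R 4.3.3, with the study's thresholds for a call (adjusted p below 0.05, 1.5-fold). The code was tested on simulated data. Normalized counts used DESeq2 1.42.0 size factors. A fold change is diseased-BWF1 against control. Permutation tests were exact and two-sided over 20 splits. Nothing in the labels tells of shared cages or dates. The edgeR p-values set the group difference against the spread between these 3 mice per group, estimated with information from all genes tested. Reads without molecular identifiers are not independent molecules, so count limits cover counting error only.

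The Zfp genes, the gene lists and the named genes were chosen with earlier results of these data known. The named genes were every called Zfp gene, the 5 with the smallest p in each direction, the 6 highest and all taken on the chromosome 4 stretch. To these came those in the study's lists, those of known role, the 2 nearest to the threshold on each side, and Trim28 and Setdb1. Genes named for shared sequence, for a library at 0 or from neighbourhoods were chosen after their values were seen. Several marker lists had little signal in all mice: T cell, mast cell, neutrophil, eosinophil, mesothelial and erythroid markers summed to at most 18.2 normalized counts. Shared sequence was counted as exact 75-base stretches of GENCODE vM21 transcripts (GRCm38), and coding sequences were aligned with Biopython 1.88. A finger was 2 cysteines and 2 histidines with 2, 12 and 3 residues between them, and the DNA-contacting helix was taken as the 7 residues before the first histidine. The alternatives were DESeq2, RLE and upper-quartile normalization, no filter, a minimum of 10 counts per library, a replicate block, age, curated records alone, each mouse left out, other thresholds and single records. Sums of genes that share sequence were added after seeing the data.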

Additional observations from a re-analysis of the deposited data

Results flagged for a closer look

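Zfp985 lies on the distal chromosome 4 stretch and Zfp990 just before it, and both held fewer than 100 counts, so that no comparison above used them. Zfp990 had 12 summed counts in the 3 diseased-BWF1 mice and 1 in the 3 control mice. Zfp985 had 12 summed counts in the 3 diseased-BWF1 mice and 0 in the control mice. Each was noted because its diseased-BWF1 level was above that of the controls in data left out of the comparisons. Both counts are small, neither gene passed the low-count filter, and both share some sequence with other genes of the cluster.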

How the results depend on the processing

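The chromosome 4 sum stayed lower and past the threshold in all alternatives run, and no called result changed sign. With curated records alone, uncalled log2 fold changes moved from 0.19 to -0.42 in Zfp932, 0.25 to 0.97 in Zfp979, 0.59 to 1.16 in Zfp568, 0.82 to 0.17 in Zfp61, 0.20 to 0.0089 in Zfp148 and 0.27 to 0.0078 in Zfp318. Zfp991 and Znf41-ps were called in all alternatives at the level of genes, except that Zfp991 was left untested when every library needed 10 counts. Zfp984 lost its call with curated records alone (adjusted p 0.0531, edgeR) and with the replicate block (0.0564, edgeR). That call was also lost in 4 of the 6 fits without 1 mouse and in the sum with Gm13212. Zfp595 was called by DESeq2 and without the filter (adjusted p 0.0412, edgeR). Without 1 mouse, the median log2 fold change of the Zfp genes ran from 0.0941 to 0.1595, highest without control mouse 2, and the number with groups that did not overlap from 60 to 76, against 45 with all mice, since fewer samples overlap less. That number was 73 without control mouse 2, and 76 without control mouse 3 or diseased-BWF1 mouse 1. The share over all genes in these fits is not given here, so these numbers show nothing particular to Zfp genes. Correlations of same-numbered mice, with group means removed, were 0.107, 0.00146 and 0.152. Control mice 1 and 3 correlated best with the diseased-BWF1 mouse of the same replicate number. Control mouse 2 correlated best with diseased-BWF1 mouse 1 (0.0551). Whether the replicate numbers pair the mice was not tested, and these few correlations cannot decide it. With the number as a replicate block, the Zfp calls were 2 (Zfp991 and Znf41-ps), their median log2 fold change was 0.12, and 18 higher and 20 lower genes were called in all, against 42 and 86 without it. Over all genes DESeq2 called 120 higher and 234 lower, no filter 89 and 170, at least 10 counts 27 and 57, age 34 and 53, curated records 8 and 11, and fits without 1 mouse 11 to 22 and 10 to 29. The depth limits genes near the threshold, where 3 counts are a large share of a library's value.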
